A study of Mus musculus with 4 samples.

Results

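The receptors described here are 9 cell surface receptors through which growth factors act on blood cells: Kit, Flt3, Epor, Csf1r, Csf2ra, Csf2rb, Csf3r, Il7r and Il5ra. They were chosen by name, and a probe was taken where either the array's own gene name or the platform annotation gave one of these symbols. This gave 23 probes for the 9 genes, of 20664 genes named on the array. Bone marrow cells of mice, depleted of lineage-positive cells, were measured on 4 arrays, 1 per sample. These are the progenitor-rich fraction left when cells with mature blood cell antigens are removed. Controls carried floxed Atad3a alleles (Atad3afl/fl, 2 samples), and the deletion group carried the same alleles with Mx1Cre (Atad3afl/flMx1Cre, 2 samples). Atad3a encodes an ATPase of the inner mitochondrial membrane. Mx1Cre is a recombinase under an interferon-inducible promoter that acts in blood cells and also in other tissues such as liver. Day 12 after poly I:C was the time point of all 4 samples. Poly I:C is a synthetic RNA that induces interferon, and both groups received it. Cre was present in the deletion group alone, so what Cre itself does cannot be told apart from what losing Atad3a does, and "after deletion" below names the group. The labels give no age or strain and do not say whether replicates came from separate animals, so p-values here measure only how far these samples spread, and that spread may be technical.

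Growth factor receptors of blood cells fall into a few structural families. Kit, Flt3 and Csf1r are receptor tyrosine kinases, which bind stem cell factor, FLT3 ligand, and CSF1 or IL-34, and phosphorylate themselves on binding. Epor, Csf2ra, Csf2rb, Csf3r, Il7r and Il5ra are cytokine receptor chains without a kinase of their own, which signal through bound JAK kinases and STAT factors. Kit and Flt3 are carried by stem cells and early progenitors, Epor by erythroid progenitors, Il7r by lymphoid progenitors, Csf1r by monocytes and macrophages, Csf3r by neutrophils and Il5ra by eosinophils. Csf2ra pairs with Csf2rb to bind GM-CSF, and Il5ra pairs with the same Csf2rb to bind IL-5.

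Each array carried 45281 probes, of which 37.5 to 39.9% were detected, meaning a detection p-value under 0.05 against negative control beads. The deposited signal at a detection p of 0.5, a measure of background, was 88.2 and 92.7 for controls against 103.9 and 103.7 for deletion samples. Values below are log2 intensities after background correction and quantile normalization unless called deposited signals, and levels of different probes are not compared. Atad3a itself read 10.92 and 11.05 in controls and 10.001 and 9.83 after deletion, a fall of 2.10-fold (adjusted p = 0.00866), on 1 probe that was not placed against the floxed exons. That call was lost without deletion replicate 1 (adjusted p = 0.0537) or deletion replicate 2 (adjusted p = 0.0704). Progenitor markers were present, with 15 of 20 stem and multipotent progenitor genes tested, though Fgd5 and Hlf were not detected on any array. Of mature antigens, Itgam, Cd8a and Cd5 were not detected on any array. The T cell genes Cd3d, Cd3e, Cd3g and Cd8b1 were detected on all 4, with Cd8b1 at a mean of 11.22 in controls. Tested were 17 of 20 common lymphoid, T and NK genes, 15 of 19 early B lineage genes and 20 of 22 erythroid genes. The sources used here do not name the depletion antibodies. Precision is limited by having 4 arrays, and a permutation of 2 against 2 arrays cannot give a p below 0.333.

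Epor fell strongly after Atad3a deletion. The main probe of Kit fell and Csf2ra rose, but both calls were lost whichever 1 of the 4 arrays was left out. Probes of Csf1r, Csf2rb, Csf3r and Il7r did not pass the test, and Flt3 and Il5ra were not detected. A probe was tested where it was detected on at least 2 of the 4 arrays. That held for 13 of the 23 receptor probes and for 7 of the 9 genes, and the other 10 probes were not detected on any array. By the brightest tested probe of each gene, 1 receptor was higher and 2 were lower past an adjusted p of 0.05, and the other 4 did not pass. Across the array, 14.7% of 10583 genes tested were called higher and 14.1% lower, 28.9% in all. The 3 receptors called are about 1 more than that share of 7 genes gives, and nothing is read from so small a difference. By probe, 1 receptor probe was called higher and 2 lower of 13, against 14% and 13% of 18367 probes, 27% in all. The groups did not overlap for 6 of the 13 receptor probes, against 70% of the probes tested. The median log2 change was -0.18 over the 7 receptor genes and 0.0019 over the 10583 genes. Fewer genes were called across the array with any 1 array left out, so later counts without single arrays are not comparable with these shares.

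**Figure D1:**
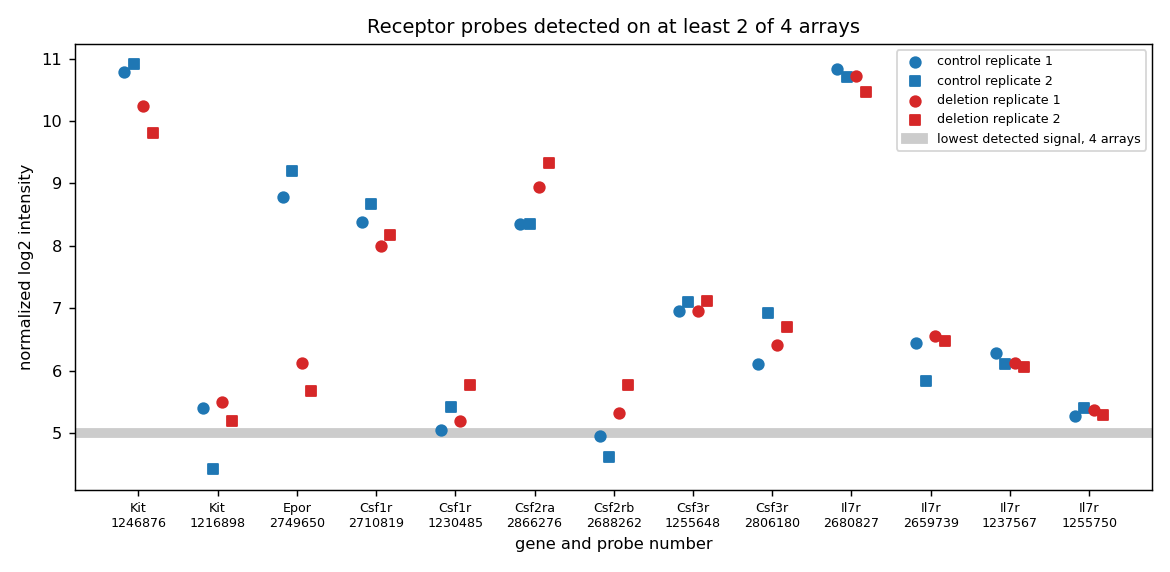
Normalized log2 intensity (vertical axis) of the 13 tested receptor probes (horizontal axis, gene and probe number) on each of the 4 arrays, controls in blue and deletion samples in red. The grey band spans the lowest signal among detected probes on the 4 arrays. Epor reads 8.78 and 9.21 in controls and 6.12 and 5.67 after deletion, the widest separation in the plot.

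The promoters of the receptors whose calls passed are shown. Transcription factors that act at such genes changed in both directions in these samples, as given further on. Of GATA factors, Gata1 was called lower, and Gata2 and Gata3 were called higher. RefSeq promoters of build GRCm38.p6 were used for 7 of the 9 receptors, and those of Csf1r and Csf2rb were not searched. Each window used covered 250 bases before to 50 after the annotated start. Each was searched on both strands for AGATAA, a form of the site bound by GATA factors, and for GAGGAA, a core bound by PU.1 and other ETS factors. Neither motif overlaps the other in these windows. Capitals mark matches in the sequences below, which run 5′ to 3′ on the strand of the gene.
Epor (chr9:21963527-21963826, minus strand): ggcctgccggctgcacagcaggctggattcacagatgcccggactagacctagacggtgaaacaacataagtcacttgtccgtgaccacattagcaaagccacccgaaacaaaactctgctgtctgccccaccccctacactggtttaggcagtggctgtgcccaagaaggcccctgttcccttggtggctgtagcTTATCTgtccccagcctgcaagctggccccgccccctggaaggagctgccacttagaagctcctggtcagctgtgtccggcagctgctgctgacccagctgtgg
Kit (chr5:75574737-75575036, plus strand): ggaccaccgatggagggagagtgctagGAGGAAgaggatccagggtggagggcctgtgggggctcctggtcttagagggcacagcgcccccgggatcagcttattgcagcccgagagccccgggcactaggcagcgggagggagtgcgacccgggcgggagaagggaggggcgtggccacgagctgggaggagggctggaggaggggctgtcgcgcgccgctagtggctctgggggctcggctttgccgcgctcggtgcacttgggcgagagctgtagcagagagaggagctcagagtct
Csf2ra (chr19:61228369-61228668, minus strand): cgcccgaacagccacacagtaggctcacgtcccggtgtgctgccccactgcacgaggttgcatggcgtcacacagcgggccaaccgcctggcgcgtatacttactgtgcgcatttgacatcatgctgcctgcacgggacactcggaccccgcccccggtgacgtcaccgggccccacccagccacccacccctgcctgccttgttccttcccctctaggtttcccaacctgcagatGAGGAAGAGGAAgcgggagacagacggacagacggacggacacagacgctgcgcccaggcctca
The Epor window held 1 AGATAA, read as TTATCT on the strand shown, and no GAGGAA. The Kit window held 1 GAGGAA and the Csf2ra window 2 next to each other just before the start. Of the remaining windows, that of Csf3r held 1 GAGGAA, that of Il5ra held 1 of each motif, and those of Flt3 and Il7r held neither. AGATAA was present in 11.2% of the 32851 RefSeq promoter windows of this length and GAGGAA in 28.3%. A match describes letters and shows no binding.

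Epor encodes the erythropoietin receptor, which red cell progenitors need to survive and mature. Its single probe (ILMN_2749650) read 8.78 and 9.21 in controls and 6.12 and 5.67 after deletion, far below both controls. The deposited signals were 516.4 and 759.3 against 158.5 and 140.0, so the transcript stayed above background in the deletion samples. Epor fell 8.56-fold (log2 change -3.10, SE 0.23, 95% interval -3.70 to -2.50, adjusted p = 0.00308 by limma). It was among 87 of the 10583 genes that were called lower with a fall of this size or more. The size of the fall depended on how background was treated, at 4.16-fold without background correction and 3.82-fold on the authors' processed values. The call held without any 1 of the 4 arrays, with adjusted p-values up to 0.0296. In bulk RNA, fewer Epor-bearing cells and less Epor RNA per cell cannot be told apart. Of 22 erythroid marker genes 20 were tested, and 18 fell and 0 rose (90% called, against 28.9% of all genes). This list and the others below were chosen with earlier results of these data known, so their shares describe them and test nothing. The median log2 change of these markers was -3.66. Their summed intensity lay between 94250 and 95217 in controls and between 7899 and 16565 after deletion, and Hbb-b1 and Epb42 were not detected on any array. Of these markers, Ermap, an erythroid membrane protein, fell by 6.30 on the log2 scale (adjusted p = 0.00113), and Slc4a1, the band 3 anion exchanger, fell by 7.19 (adjusted p = 0.0263). Slc4a1 read 8.73 and 4.38 after deletion, undetected at the lower value, and did not pass once control replicate 1 or control replicate 2 was dropped (adjusted p up to 0.0966). The part of erythroid cell content in the fall of Epor was not tested.

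Kit encodes the receptor for stem cell factor, and its probes disagreed. The brightest (ILMN_1246876), annotated to the RefSeq transcript, read 10.79 and 10.91 in controls and 10.24 and 9.82 after deletion, without overlap. It fell 1.76-fold (log2 change -0.82, SE 0.18, 95% interval -1.29 to -0.34, adjusted p = 0.0346). A dim probe (ILMN_1216898), annotated to a cDNA clone record, read 5.40 and 4.42 in controls and 5.50 and 5.20 after deletion. Control replicate 2 was its low array, where it was not detected, and the groups overlapped. Its log2 change was 0.44 (95% interval -0.48 to 1.36, adjusted p = 0.386), and without control replicate 1 it was 0.95 and passed (adjusted p = 0.0442). The third probe (ILMN_1250169), also annotated to a clone record, had deposited signals of 83.7 to 109.7 and was not detected on any array. The fall of the bright probe did not pass when any 1 of the 4 arrays was left out, with log2 changes from -1.03 to -0.60 and adjusted p-values from 0.0625 to 0.145. It also did not pass without a detection filter (adjusted p = 0.0593). Kit is carried by stem cells and progenitors of several lineages and by mast cells, and the marker lists of such cells moved both ways. Of 20 tested erythroid genes 18 fell and of 15 tested early B lineage genes 15 fell, as given with Epor and Il7r. Of 15 tested stem and multipotent progenitor genes 11 rose and 2 fell (median log2 change 1.01). Among 11 tested basophil and mast cell markers there were 8 rises and 0 falls (median 0.94). These are 86.7% and 72.7% of the lists, against 28.9% of all genes. Their summed intensities were 4551 to 4562 in controls and 10245 to 10872 after deletion for progenitors, and 30410 to 30580 and 47782 to 53420 for basophil and mast cell genes. In that last list Mcpt1, Tpsab1, Tpsb2, Tph1 and Gzmb were not detected on any array, the mast cell protease Cma1 did not pass (adjusted p = 0.119), and Mcpt8, a basophil protease, is among the genes called. Hoxa7, a homeobox gene of progenitors, rose 2.95-fold (adjusted p = 0.00596), and Ly6a, which encodes Sca-1, rose 5.83-fold (adjusted p = 0.00142). The 2 progenitor genes that fell were Mllt3 (log2 change -1.24, adjusted p = 0.00551) and Eng (log2 change -1.22, adjusted p = 0.00844). The IgE receptor chain genes Ms4a2 and Fcer1a rose 3.62-fold (adjusted p = 0.00446) and 3.54-fold (adjusted p = 0.00347). Fewer progenitor genes rose without any 1 of the 4 arrays, and fewer basophil and mast cell genes without control replicate 2 or either deletion array. Fewer genes were called across the array in those fits too. The call on Hoxa7 was lost without deletion replicate 2. The part of these cells in the Kit values was not tested. With both tested Kit probes averaged, the log2 change was -0.19 (adjusted p = 0.505).

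The GM-CSF receptor has an alpha chain, encoded by Csf2ra, and a signalling beta chain, encoded by Csf2rb. The single Csf2ra probe (ILMN_2866276) read 8.34 on both control arrays and 8.95 and 9.33 after deletion, with no overlap. It rose 1.74-fold (log2 change 0.80, SE 0.17, 95% interval 0.36 to 1.23, adjusted p = 0.0301). Left out in turn, any 1 of the 4 arrays ended the call, with log2 changes from 0.61 to 0.99 and adjusted p-values from 0.0617 to 0.135. The brightest Csf2rb probe (ILMN_2688262) read 4.95 and 4.61 in controls, where it was not detected on either array, and 5.32 and 5.77 after deletion, where it was detected on both. The deletion samples were at least 1.43-fold higher by the lowest detected signal, under the background correction used here only. The fold as read was 1.20 without background correction, 1.30 with an offset of 50 and 1.17 on the authors' processed values. The log2 change of the values as read was 0.77, which did not pass (SE 0.22, adjusted p = 0.0597). It passed with median scaling (adjusted p = 0.0452) and with a robust prior that follows intensity (adjusted p = 0.0464). The other 2 Csf2rb probes were not detected on any array, with deposited signals of 87.8 to 119.0. Mice have a second beta chain gene, Csf2rb2, which serves IL-3 and is a close copy of Csf2rb, so signal on probes of either gene may be shared. Its probe read 7.95 and 8.54 in controls and 8.96 and 9.27 after deletion, higher on both deletion arrays, and did not pass (log2 change 0.87, SE 0.25, adjusted p = 0.0606). Without control replicate 2 it passed (adjusted p = 0.0445). The IL-3 receptor alpha chain, Il3ra, read 7.48 and 7.56 against 8.17 and 8.37 and rose 1.68-fold (adjusted p = 0.01997), a call that was lost without any 1 of the 4 arrays (adjusted p up to 0.125). Monocyte and macrophage markers, cells that carry Csf2ra, rose for 8 and fell for 1 of 19 tested genes, with a median log2 change of 0.32. Fewer of them rose without control replicate 2 or either deletion array, when fewer genes were called across the array too. With all 4 arrays 47.4% of this list was called, against 28.9% of all genes. The summed intensity of its genes lay between 23376 and 25015 in controls and between 30905 and 31885 after deletion. Fcgr1 was undetected, and the part of these cells in the Csf2ra and Csf1r values was not tested.

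**Figure D2:**
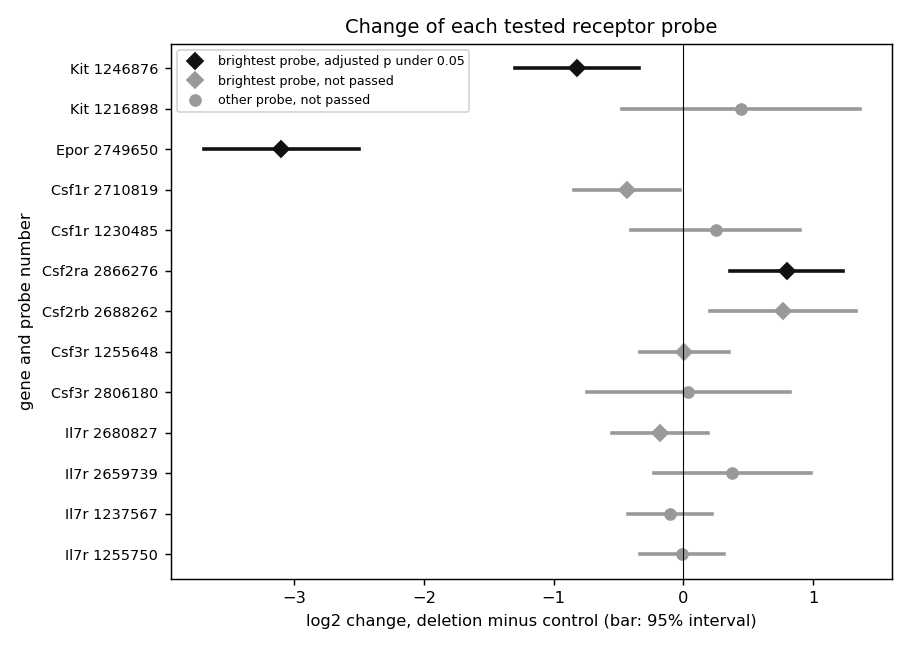
Log2 change, deletion minus control (horizontal axis), with its 95% interval (bar) for each of the 13 tested receptor probes (vertical axis). Diamonds are the brightest probe of a gene and circles its other probes, and black marks an adjusted p under 0.05. Epor lies at -3.10, Kit at -0.82 and Csf2ra at 0.80, and the other 10 probes are grey.

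Csf1r encodes the receptor for CSF1 and IL-34 on monocytes and macrophages. Both of its probes are annotated to RefSeq transcripts, and they differed in direction without passing. The brighter (ILMN_2710819) read 8.38 and 8.67 in controls and 8.002 and 8.17 after deletion, lower on both deletion arrays. Its log2 change was -0.44 (SE 0.16, 95% interval -0.85 to -0.03, adjusted p = 0.103). The dimmer (ILMN_1230485) read 5.05 and 5.42 in controls and 5.20 and 5.77 after deletion, with overlapping groups and a log2 change of 0.25 (95% interval -0.40 to 0.90, adjusted p = 0.486). In the monocyte and macrophage list, Ccl6, a chemokine, rose 3.09-fold (adjusted p = 0.00288), and Clec7a, the receptor Dectin-1, fell 2.14-fold (adjusted p = 0.0388). The call on Clec7a was lost without control replicate 1, control replicate 2 or deletion replicate 2 (adjusted p up to 0.118), and on its second probe the log2 change was -0.16.

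Csf3r encodes the G-CSF receptor of the neutrophil lineage, and 2 of its 5 probes were tested. The brightest (ILMN_1255648) read 6.95 and 7.09 in controls and 6.95 and 7.11 after deletion. Its log2 change was 0.0085 (95% interval -0.33 to 0.35, adjusted p = 0.967), so a change beyond 0.35 in either direction lies outside that interval. The second (ILMN_2806180) read 6.11 and 6.92 in controls and 6.41 and 6.70 after deletion, both deletion values lying between the controls, with a wider interval of -0.74 to 0.82 (adjusted p = 0.932). The other 3 probes had deposited signals of 84.8 to 107.0 and were not detected on any array. Neutrophil granule and related markers moved in both directions, with 3 of 15 tested genes higher and 3 lower. That is 40% of the list against 28.9% of all genes, and the median log2 change was 0.04. Without single arrays 1 to 3 were higher and 1 to 2 lower. Elane, neutrophil elastase, fell 8.73-fold (adjusted p = 0.00468), and Lcn2, lipocalin 2 of secondary granules, rose 3.49-fold (adjusted p = 0.00553).

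Il7r encodes the alpha chain of the interleukin 7 receptor, which early B and T lineage cells need. Of its 5 probes 4 were tested and none passed, with 0 at an unadjusted p under 0.05. The brightest (ILMN_2680827) read 10.83 and 10.71 in controls and 10.72 and 10.47 after deletion, with overlapping groups. Its log2 change was -0.18 (SE 0.14, 95% interval -0.55 to 0.19, adjusted p = 0.384). The second RefSeq probe (ILMN_2659739) read 6.45 and 5.83 in controls and 6.56 and 6.47 after deletion, higher on both deletion arrays, with a log2 change of 0.38 (95% interval -0.23 to 0.99, adjusted p = 0.276). Without control replicate 1 that change was 0.69 and passed (adjusted p = 0.0407). The 2 probes annotated to clone records had log2 changes of -0.10 (ILMN_1237567, 95% interval -0.43 to 0.23) and -0.0097 (ILMN_1255750, 95% interval -0.33 to 0.31). The fifth probe (ILMN_2975500) had deposited signals of 85.1 to 109.6 and was not detected on any array. Lymphoid markers beside it moved both ways. Of 15 tested early B lineage genes 15 fell and 0 rose (100% called, against 28.9% of all genes). The median log2 change of these markers was -2.58, with summed intensities of 28356 to 28757 in controls and 2458 to 3116 after deletion. Vpreb3, an early B cell gene, fell 81.8-fold (adjusted p = 0.00171). Of 17 tested common lymphoid, T and NK genes 10 rose and 0 fell (58.8% called, against 28.9% of all genes). The median of these was 0.88, with summed intensities of 16123 to 16199 in controls and 29094 to 34961 after deletion. Dntt, the polymerase that adds untemplated bases at immune receptor joins, rose 4.95-fold (adjusted p = 0.00239), and Cd247, the T cell receptor zeta chain, rose 3.99-fold (adjusted p = 0.0130). The other Cd247 probes had log2 changes of 0.54 (adjusted p = 0.132) and 0.66 (adjusted p = 0.0337), and the mean of its probes gave 2.09-fold. Cd247 lost its call without either deletion array. Fewer genes of this T and NK list rose without control replicate 2 or either deletion array, when fewer genes were called across the array too. The part of either cell content in the Il7r values was not tested.

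**Figure D3:**
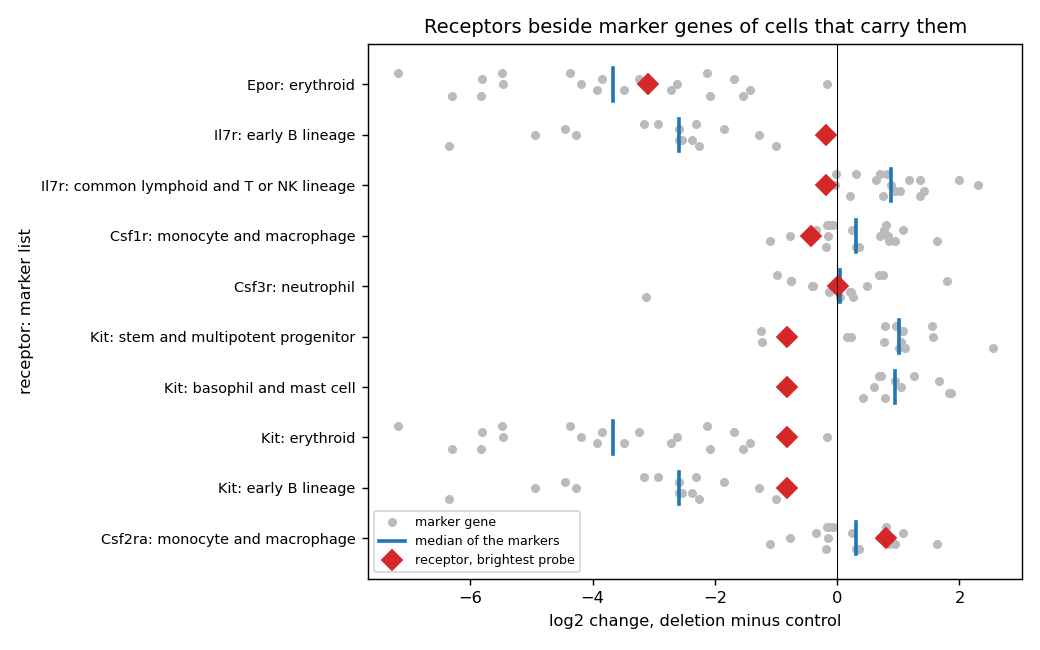
Log2 change, deletion minus control (horizontal axis), of marker genes (grey), their median (blue line) and a receptor's brightest probe (red diamond), for pairs of a receptor and a cell type that carries it (vertical axis). Epor at -3.10 lies among erythroid markers with a median of -3.66, Il7r at -0.18 lies above the early B lineage median of -2.58, and Kit at -0.82 lies below the progenitor and basophil and mast cell medians of 1.01 and 0.94 and above the erythroid and early B lineage medians.

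Flt3, the tyrosine kinase receptor of early lymphoid and myeloid progenitors, was not measured above background. Its RefSeq probe (ILMN_2761370) had deposited signals of 93.2 and 105.1 in controls and 110.2 and 109.8 after deletion, with detection p-values of 0.119 to 0.253. The clone probe (ILMN_2576268) had signals of 91.1 and 98.3 against 105.0 and 112.6, with detection p-values of 0.138 to 0.442. Il5ra, the alpha chain of the interleukin 5 receptor, has 1 probe (ILMN_2773153), with deposited signals of 98.2 and 96.0 against 112.3 and 119.2 and detection p-values of 0.0513 to 0.343. These signals were higher on the deletion arrays, as was the background given above, and after correction the groups of all 3 probes overlapped. No fold is given for a receptor below background in both groups. Of 13 tested dendritic cell markers, cells that carry Flt3, 9 rose and 1 fell (76.9% called, against 28.9% of all genes). The median log2 change was 1.11, and fewer rose without control replicate 2 or either deletion array. The 1 that fell was Zbtb46 (log2 change -1.20, adjusted p = 0.00565), and the 9 include Flt3l, also counted among the ligands below. Of those that rose, Bst2, also interferon-inducible, rose 3.65-fold (adjusted p = 0.0134) and H2-Eb1, a class II antigen chain, 3.32-fold (adjusted p = 0.00558). Bst2 did not pass once control replicate 2 was dropped. Of 7 tested eosinophil markers, cells that carry Il5ra, 2 fell and 0 rose, and more were called lower without deletion replicate 1. With all 4 arrays, the 28.6% of the list called are near the 28.9% of all genes called in either direction. That share says nothing particular to the list. By direction, both called genes fell, against 14.1% of all genes called lower, and the median log2 change of the list was -1.02. The 2 were Epx, eosinophil peroxidase, which fell 4.22-fold (adjusted p = 0.00235), and Ear2, an eosinophil ribonuclease, which fell 2.53-fold (adjusted p = 0.00411), or 1.82-fold by the mean of its probes. Siglecf was undetected, the summed intensity lay between 8426 and 8724 in controls and between 3337 and 4922 after deletion, and its part in the Il5ra values was not tested.

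**Figure D4:**
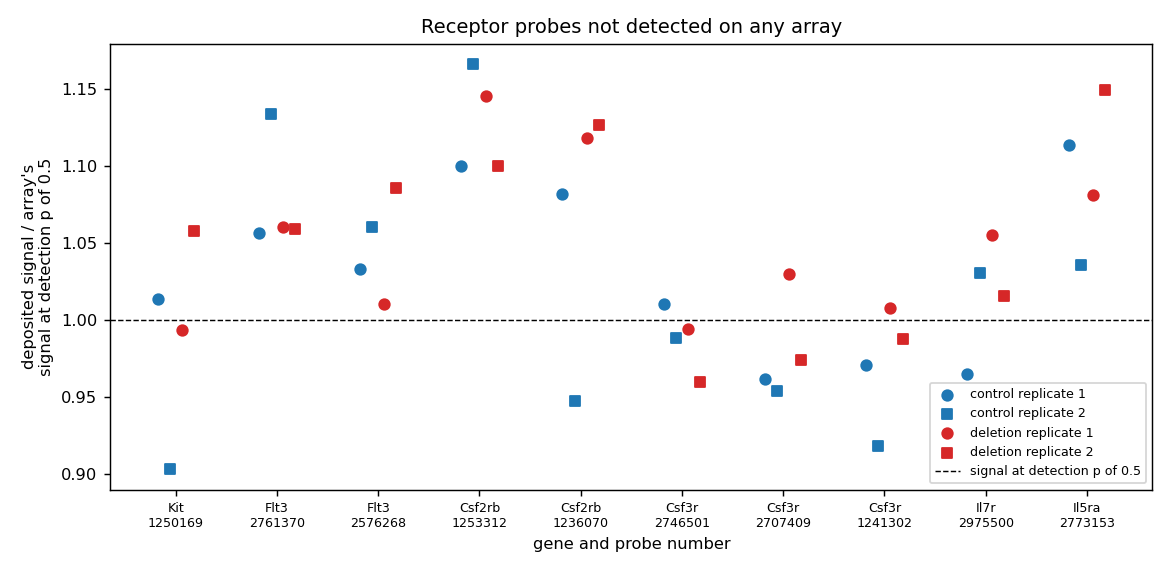
Deposited signal divided by the array's signal at a detection p of 0.5 (vertical axis) for the 10 receptor probes not detected on any array (horizontal axis), controls in blue and deletion samples in red. Both probes of Flt3, the probe of Il5ra and 7 further probes sit near the dashed line at that background level.

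Of the ligands of these receptors, 11 had a probe and 4 were tested, of which 3 rose and 0 fell. That is 75% of those tested, against 28.9% of all genes. Csf1, the macrophage growth factor, read 6.55 and 6.73 in controls and 7.77 and 8.05 after deletion and rose 2.41-fold (adjusted p = 0.00888). The call was lost without deletion replicate 2 (adjusted p = 0.0607). Flt3l, FLT3 ligand, read 5.29 and 4.93 against 5.82 and 5.81 and rose 1.63-fold (adjusted p = 0.0379). Il7 was not detected in controls, at 4.88 and 4.72, and read 5.43 and 5.49 after deletion. By the lowest detected signal that is at least 1.35-fold higher, under the background correction used here only. The fold as read was 1.16 without background correction, 1.24 with an offset of 50 and 1.14 on the authors' processed values. Il7 was tested through the deletion arrays alone, and the log2 change of the values as read was 0.66 (adjusted p = 0.0228). Both dim ligands lost their calls without background correction (adjusted p = 0.0725 for Flt3l and 0.0804 for Il7), with an offset of 50 (adjusted p = 0.0549 and 0.0535) and on the authors' processed values (adjusted p = 0.0977 and 0.101). Flt3l also lost it without either deletion array or control replicate 2 (adjusted p up to 0.166), and Il7 without control replicate 2 (adjusted p = 0.0607). Rises numbered 3, 1, 1 and 0 without control replicates 1 and 2 and deletion replicates 1 and 2, where Il7 was not tested without a deletion array. Csf2, which encodes GM-CSF, had a log2 change of 0.60 that did not pass (adjusted p = 0.153). Kitl, Epo, Il34, Csf3, Il5 and Il3 were not detected on any array, and Tslp was detected on 1. These RNAs come from the sampled cells and say nothing of ligand made elsewhere.

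Among 30 other tested cytokine and growth factor receptors of blood cells, 10 rose and 4 fell (46.7% called, against 28.9% of all genes), with a median log2 change of 0.32. Il2rg, the common gamma chain that pairs with Il7r, read 7.79 and 7.93 in controls and 9.29 and 9.03 after deletion and rose 2.47-fold (adjusted p = 0.00730). On a dimmer Il2rg probe the change was 0.27 on the log2 scale (adjusted p = 0.2998), the mean of both gave 1.73-fold, and the call was lost without deletion replicate 1 (adjusted p = 0.0520). The IL-6 receptor Il6ra rose 2.20-fold (adjusted p = 0.00621) and Tek, the angiopoietin receptor, 2.16-fold (adjusted p = 0.00822), and both lost their calls without either deletion array (adjusted p up to 0.0639). Of those that fell, the transferrin receptor Tfrc, also in the erythroid list, fell 2.70-fold (adjusted p = 0.00495) and its relative Tfr2 4.19-fold (adjusted p = 0.0138). Il2ra, the IL-2 receptor alpha chain that early B cells also carry, fell 2.56-fold (adjusted p = 0.0130), and the IL-33 receptor Il1rl1 1.72-fold (adjusted p = 0.0186). The calls on Tfr2 and Il2ra were lost without control replicate 2 or deletion replicate 2, and that on Il1rl1 without either deletion array (adjusted p up to 0.119). In this list 7, 6, 1 and 1 genes rose, and 4, 2, 3 and 1 fell, without control replicates 1 and 2 and deletion replicates 1 and 2 in that order, when 23.6%, 15.2%, 7.18% and 6.11% of genes were called.

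Of 32 tested JAK, STAT and adaptor genes 7 rose and 3 fell, with a median log2 change of 0.11. That is 31.2% of the list against 28.9% of all genes, near the background, so the count is not a result about the list. Jak2, the kinase bound by Epor and Csf2rb, had a log2 change of 0.40 that did not pass (adjusted p = 0.107), and Stat5a, the factor it activates, 0.03 (adjusted p = 0.923). Stat5b was not detected on any array. The kinase gene Fyn rose 2.73-fold (adjusted p = 0.0150) and the adaptor Dok2 2.22-fold (adjusted p = 0.00882). The adaptor Sh2b2, not detected in controls, was at least 1.48-fold higher under the background correction used here. Its log2 change as read was 0.73 (adjusted p = 0.0152). Gab1, an adaptor downstream of Epor and Kit, fell 7.72-fold (adjusted p = 0.00148), the kinase gene Map2k1 1.59-fold (adjusted p = 0.0175) and the adaptor Shc1 1.44-fold (adjusted p = 0.0494). The call on Gab1 held without any 1 of the 4 arrays, whereas those on Fyn, Dok2, Map2k1 and Shc1 were lost without either deletion array, and those on Map2k1 and Shc1 also without control replicate 2 (adjusted p up to 0.220). The counts were 6, 4, 0 and 1 higher and 3, 1, 1 and 1 lower without control replicates 1 and 2 and deletion replicates 1 and 2.

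Genes induced through STAT5 or acting as feedback on these receptors rose for 12 and fell for 4 of 28 tested members. That is 57.1% of the list against 28.9% of all genes, and the median log2 change was 0.50. Cish, a SOCS family inhibitor induced by STAT5, read 8.02 and 7.99 in controls and 10.09 and 10.05 after deletion. It rose 4.18-fold (SE 0.11 on the log2 scale, adjusted p = 0.00176). Socs2, another such inhibitor, read 8.38 and 8.22 against 10.59 and 10.74 and rose 5.15-fold (SE 0.13, adjusted p = 0.00176). The cyclin genes Ccnd1 and Ccnd2 rose 5.78-fold and 3.87-fold, and these 4 calls held without any 1 of the 4 arrays. Gfi1b, an erythroid and megakaryocyte repressor, fell 3.23-fold (adjusted p = 0.00289) and Erfe, the erythropoietin-induced hormone erythroferrone, 2.34-fold (adjusted p = 0.0272). The cyclin gene Ccnd3, needed for red cell size, fell 1.77-fold (adjusted p = 0.0154) and Socs4 1.46-fold (adjusted p = 0.0290). Without either deletion array the calls on Erfe, Ccnd3 and Socs4 were lost, that on Erfe also without control replicate 2 and that on Socs4 without either control array (adjusted p up to 0.164), and with all detected probes averaged the log2 change of Ccnd3 was -0.37 (adjusted p = 0.234). Members that rose numbered 10, 8, 7 and 6, and those that fell 3, 2, 1 and 1, without control replicates 1 and 2 and deletion replicates 1 and 2.

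Transcription factors known to act at these receptor genes moved in both directions, with 11 of 34 tested members higher and 9 lower. That is 58.8% of the list against 28.9% of all genes, and the median log2 change was 0.04. Some of these members are also counted in the marker lists above. Among them are Klf1, Gata1 and Gfi1b (erythroid), Ebf1 (early B lineage) and Gata3 (common lymphoid, T and NK). The red cell factor Klf1 fell 14.4-fold (adjusted p = 0.00459), Tal1 4.73-fold (adjusted p = 0.00498) and Gata1 4.39-fold (adjusted p = 0.00232), while their partners Lmo2 (log2 change -0.42, adjusted p = 0.0781) and Ldb1 (log2 change 0.085, adjusted p = 0.593) did not pass. On a probe annotated to a clone record, the early B cell factor Ebf1, which acts with Il7r signalling in B lineage entry, read 8.19 and 8.03 in controls and 5.35 and 5.68 after deletion and fell 6.04-fold (adjusted p = 0.00224). Spib, an ETS factor of B and dendritic cells, fell 9.39-fold (adjusted p = 0.00126). Gata2, also in the progenitor and the basophil and mast cell lists, rose 1.73-fold (adjusted p = 0.0175). Of myeloid factors, Cebpa, which acts at Csf3r, rose 2.55-fold (adjusted p = 0.0324), Cebpb 2.25-fold (adjusted p = 0.0252) and Spi1, which encodes PU.1, 1.72-fold (adjusted p = 0.0170). These 3 calls were lost without either deletion array, that on Cebpa also without control replicate 2 (adjusted p up to 0.153). The stem cell and megakaryocyte factor Fli1 rose 2.60-fold (adjusted p = 0.00664) and Gata3, a factor of early T cells, 2.67-fold (adjusted p = 0.0103), the latter not passing without control replicate 2 (adjusted p = 0.05). Rises numbered 10, 7, 2 and 2 and falls 9, 7, 8 and 7 without control replicates 1 and 2 and deletion replicates 1 and 2.

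Markers of other cells that the samples could hold are given for completeness. Of 11 tested megakaryocyte and platelet genes 7 rose and 1 fell (72.7% called, against 28.9% of all genes). The median log2 change was 1.26, and Ppbp, a platelet chemokine, rose 4.74-fold (adjusted p = 0.0154) and Treml1 3.64-fold (adjusted p = 0.00951). Ppbp did not pass without control replicate 1 or control replicate 2 (adjusted p up to 0.0643), and 4, 4, 3 and 2 of the list rose without control replicates 1 and 2 and deletion replicates 1 and 2. Of 11 tested stroma and endothelium genes 6 rose and 0 fell (54.5% called, against 28.9% of all genes). Summed intensities of the list were 2408 to 2508 in controls and 3778 to 4216 after deletion. Col1a1, Col3a1, Lepr, Bglap and Fabp4 were not detected on any array. Rises numbered 4, 1, 1 and 2 in that order of arrays left out. The median of the list was 0.52, and it was 0.30 when the 3 genes undetected in controls were set to their bound. Adipoq, the fat cell hormone adiponectin, rose 2.59-fold (adjusted p = 0.00389), and Stab2, a scavenger receptor of sinusoidal endothelium, rose 2.60-fold (adjusted p = 0.0389), a call lost without control replicate 1, control replicate 2 or deletion replicate 1 (adjusted p up to 0.114).

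**Figure D5:**
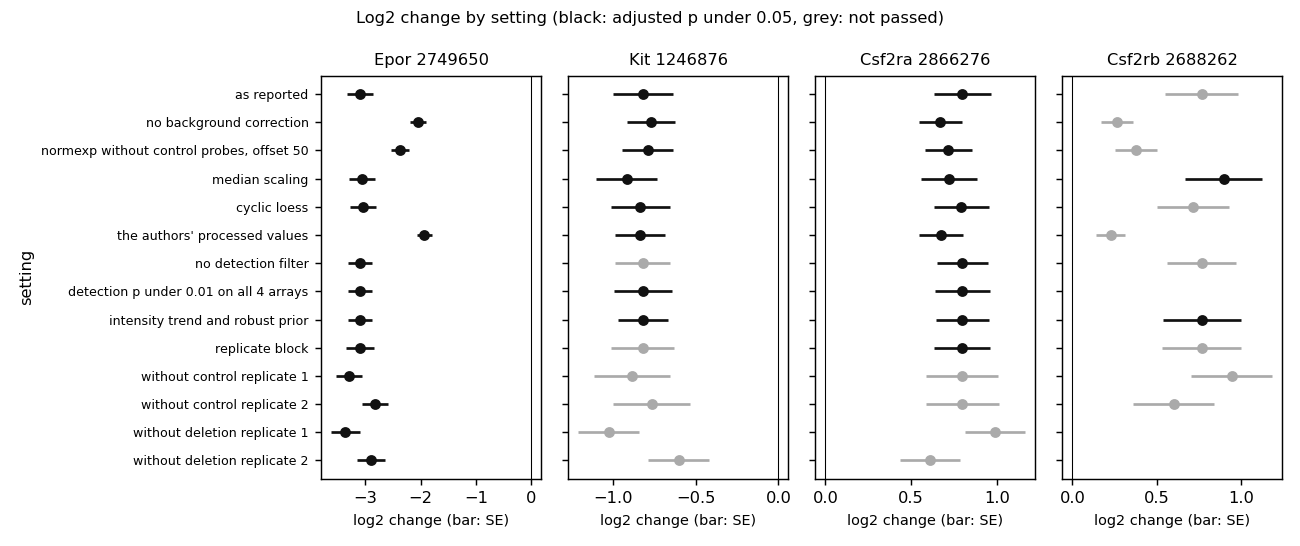
Log2 change (horizontal axis, bar for SE) of 4 receptor probes under each processing setting (vertical axis), black where the adjusted p was under 0.05 and grey where it was not. Epor is black under each setting, from -3.36 to -1.93, while Kit and Csf2ra turn grey without any 1 of the 4 arrays.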

How the data were processed

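RNA was measured in 4 samples, 2 controls and 2 deletion samples, on 1-colour Illumina mouse bead arrays, 1 per sample. Per the file headers, the authors deposited a raw signal intensity with its detection p-value for each of 45281 probes. Values came from GenomeStudio, per the submitters' processing notes, and the sources used here name no version, background step or bead filter. A second table, the authors' processed intensity, is linear, with medians of 100.5, 100.5, 100.6 and 100.6 and the same lowest and highest value on each array. By its values it is quantile normalized, and the authors' method is not stated. It was used as an alternative.

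Background was removed in limma 3.58.1 (R 4.3.3) with a normal plus exponential model, with negative controls inferred from detection p-values and an offset of 16, then quantile normalized and taken to log2. Both steps affect the size of changes at dim probes. A probe needed a detection p below 0.05 on 2 or more arrays, and the 18367 that passed were fitted with lmFit and eBayes (2 residual and 2.72 prior degrees of freedom) on the log2 scale, with Benjamini-Hochberg adjustment over all of them. A probe undetected in one group is given as a bound against the lowest detected signal, which holds only under this background correction. Such a probe was tested through the other group alone, and its adjusted p belongs to the values as read, not to the bound. Platform symbols, updated through the RefSeq table, named 34885 probes, array names 2467 more, and 7911 stayed unnamed. The 18 probes with several genes were left unnamed too. The brightest tested probe stood for a gene.

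Other genes were named by a rule: all ligands, up to 4 called genes in each direction per pathway list, 2 per marker list, and a fixed set of receptor partners, kinases and factors, of which some are not reported here. Further list members are named where they limit a reading. Members and lists were chosen with earlier results of these data known, so the share of a list called describes it and is no test of it. Same-numbered samples did not deviate together (correlation 0.025). Alternatives are given in the closing section.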

Additional observations from a re-analysis of the deposited data

How the results depend on the processing

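Epor kept its direction and its call under all 13 alternatives run for it, from -3.36 to -1.93 on the log2 scale. The count of 1 receptor gene higher became 2 with median scaling, with a robust prior that follows intensity and with the mean of all detected probes, and 0 when a change of at least 2-fold was also asked for. It was 0 to 0 over the arrays left out in turn. The count of 2 receptor genes lower became 1 with no detection filter, with the replicate block, with the mean of all detected probes and with at least 2-fold as well, and was 1 to 1 over the arrays left out. By probe, the 1 higher became 2 with median scaling or with the trend and robust prior, 0 with at least 2-fold as well, and 0 to 2 over the arrays left out. The 2 lower became 1 with no detection filter, the replicate block or at least 2-fold as well, and were 1 to 1 over the arrays left out. With replicate numbers as a block, Kit had an adjusted p of 0.0501. The numbers do not show that samples were paired, and other receptor calls did not change under the block. Probes with changes near 0 turned sign. The mean over Il7r probes was 0.022, median scaling gave 0.013 and 0.15 for its clone probes and -0.043 for Stat5a, and without single arrays the second clone probe ranged from -0.081 to 0.062. Left out in turn, arrays also turned the dim Kit probe (-0.048 to 0.95), the dim Csf1r probe (-0.039 to 0.54) and the tested Csf3r probes (-0.071 to 0.089 and -0.36 to 0.42). Stat5a ranged from -0.15 to 0.20. The cause was not tested. The brightest Csf2rb probe was not fitted without a deletion array or with detection p under 0.01 on all 4 arrays, since too few arrays detect it. No slide is named in the files, so no slide block was run. Signal over background limits the dim probes, whose log2 changes shrink without background correction, as for Csf2rb at 0.27.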
